A study of Mus musculus with 12 samples.

Results

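A set of 35 genes of glycolysis, its regulatory kinases, lactate handling, the pentose phosphate pathway and the hypoxia response was examined in dendritic cells, out of 41709 genes in the count tables. The set was chosen by gene name. It holds 4 genes of glucose uptake and phosphorylation, 7 of upper glycolysis, 6 of lower glycolysis, 4 of lactate formation and transport, 4 regulatory kinases, 6 genes of the hypoxia response and 4 of the pentose phosphate pathway. All 35 passed the filter on low counts in every comparison.

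The cells were bone marrow-derived dendritic cells (BMDCs), grown from mouse bone marrow with GM-CSF for 10 days and enriched for MHCII+ cells. They came from CD18fl/fl mice, which carry 2 floxed copies of Itgb2 and no Cre and served as controls, or from CD18CD11c cKO mice, which carry the same floxed copies and in addition Cre driven by CD11c. Itgb2 encodes CD18, the shared chain of the beta2 integrins. Each genotype was left unstimulated or received LPS at 100 ng/mL for 24 h (overnight in the methods), giving 4 groups of 3 libraries. LPS is a bacterial cell wall component sensed by TLR4. The labels do not say whether the libraries of a group came from separate animals, so p-values may measure technical spread only. In cells from a bulk culture, fewer cells of a type and less RNA per cell cannot be told apart.

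Glycolysis turns glucose into pyruvate, and lactate dehydrogenase passes pyruvate on to lactate, which leaves the cell through monocarboxylate transporters. Dendritic cells and macrophages are known to raise glycolytic flux after TLR stimulation. HIF-1, a transcription factor made of Hif1a and Arnt, drives many genes of this pathway. Prolyl hydroxylases mark Hif1a for degradation when oxygen is present, and NF-kappaB signaling raises Hif1a in activated myeloid cells. The pentose phosphate pathway branches off at glucose 6-phosphate and yields NADPH and ribose.

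The libraries held between 29689149 and 34037178 reads on genes. CPM values (read counts relative to effective library size) are given after TMM over all 12 libraries, and 3 reads correspond to 0.0881 to 0.101 CPM. The targeted gene Itgb2 reached 381.7, 420.2 and 379.1 CPM in unstimulated CD18fl/fl and 120.5, 163.4 and 189.5 CPM in unstimulated CD18CD11c cKO BMDCs. With LPS it reached 167.1, 171.1 and 266.5 CPM in CD18fl/fl and 114.4, 89.7 and 118.6 CPM in CD18CD11c cKO BMDCs, so the genotypes did not overlap in either state. Reads are counted over the whole gene, so transcripts lacking the floxed exon still add to these values. Of 11 dendritic cell markers, 11 were above 1 CPM in the mean of each group. Summed macrophage markers (10 genes) were 1707 to 2034 CPM in unstimulated and 919 to 1104 CPM in LPS-treated CD18fl/fl BMDCs, and 1694 to 2265 and 486 to 820 CPM in CD18CD11c cKO. Summed neutrophil markers (10 genes) were 1326 CPM in unstimulated CD18fl/fl replicate 1 and 8.9 to 194 CPM in the other libraries. The part of these cells in the results was not tested. Libraries with the same replicate number deviated together in every group. Replicates 1 and 2 also did so across numbers, and replicate 3 stood apart from both. Each edgeR result is therefore given first without a block and then with a term for the replicate number (the replicate block). SE stands for standard error, and a gene is called at a Benjamini-Hochberg adjusted p under 0.05 over all genes tested. Each replicate number holds 1 library of every group.

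The levels of the 35 genes spanned a wide range. Compared per exon length, as CPM per kilobase of exon, 12 genes had a median level of at least 100 over the 12 libraries and 9 had one under 10. Pgk1 (phosphoglycerate kinase) led with a median level of 508, followed by Aldoa (aldolase A) with 475, Pgam1 with 427, Ldha (lactate dehydrogenase A) with 393 and Taldo1 (transaldolase) with 373. The lowest median levels per length were those of Pfkm, the muscle form of phosphofructokinase, at 1.28, of the lactate transporter Slc16a1 at 1.39 and of Eno2, the neuronal enolase, at 1.74. The fewest reads of any of these genes in a library were 20. The libraries' ranges of neighbouring genes in this order overlapped throughout: Pgk1 ran from 267 to 1245 and Aldoa from 301 to 1556. Gapdh, often used for normalisation, ran from 122 to 375 CPM per kilobase. Tkt and G6pdx spanned the narrowest ranges over the 12 libraries, with the highest library 1.92 and 1.86 times the lowest.

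In the first comparison, LPS-treated CD18fl/fl BMDCs were set against unstimulated ones. Levels of Ankrd37, Bnip3, Slc16a3, Tpi1, Pgk1 and Slc2a1 were higher with LPS on average, and those of Ldhb, Aldoc, Pfkfb4 and Pdk1 were lower. Without the replicate block, edgeR called 0 of the 35 genes higher (2.06% of the 12744 genes tested were called higher) and 0 lower (1.83% of all genes). With the block, 1 gene rose and 2 fell: Ankrd37 rose, and Aldoc and Ldhb fell. Of all genes, 6.33% were called higher and 6.43% lower with the block, so the share among the 35 was near or under the background. At an unadjusted p under 0.05, 13 of the 35 passed without and 14 with the block, as did 3034 and 4144 of all 12744 genes. DESeq2 without a block called 5 higher (Tpi1, Pgk1, Slc16a3, Bnip3 and Ankrd37) and 2 lower (Aldoc and Ldhb), where it called 5.12% and 4.36% of 18927 genes. All DESeq2 shares given here are over genes with a fold change, low-count genes included, so their base differs from the filtered one of edgeR. The median log2 fold change of the 35 genes was 0.28, against -0.01 over all genes tested (0.33 against -0.03 with the block).

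The spread within CD18fl/fl followed the replicate number. In replicates 1 and 2, 26 and 25 of the 35 genes were higher with LPS, with median log2 changes of 0.54 and 0.65. In replicate 3, 15 were higher and 20 lower, with a median of -0.17. Of the 10 genes that exceeded a log2 change of 1 in both replicates 1 and 2 (Slc2a1, Pfkp, Aldoa, Tpi1, Pgk1, Ldha, Slc16a3, Egln3, Bnip3 and Ankrd37), 1 did so in replicate 3. That gene was Ankrd37, at 1.68, and the others lay between -0.49 and 0.26. In edgeR on replicates 1 and 2 alone, 18 of the 35 genes were higher (23.2% of all genes) and 7 lower (24.3%). Leaving out the LPS-treated CD18fl/fl replicate 3 alone gave 8 higher and 3 lower of the 35 genes (12.2% and 12.5% of all genes), and leaving out the unstimulated replicate 3 gave 2 higher and 1 lower (1.89% and 1.91%). Summed dendritic cell markers in LPS-treated CD18fl/fl BMDCs reached 34400 and 46540 CPM in replicates 1 and 2 and 16640 CPM in replicate 3. Replicate 3 was also lowest in the other groups, with 25270, 25400 and 16280 CPM in replicates 1, 2 and 3 of unstimulated CD18fl/fl. The largest markers were H2-Ab1, H2-Aa, H2-Eb1 and Cd74, with means of 8627, 8397, 8227 and 4139 CPM in LPS-treated CD18fl/fl. The sum thus reflects mainly MHCII-related RNA, in cells enriched for MHCII. The part of the cells' composition in these differences was not tested.

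**Figure D1:**
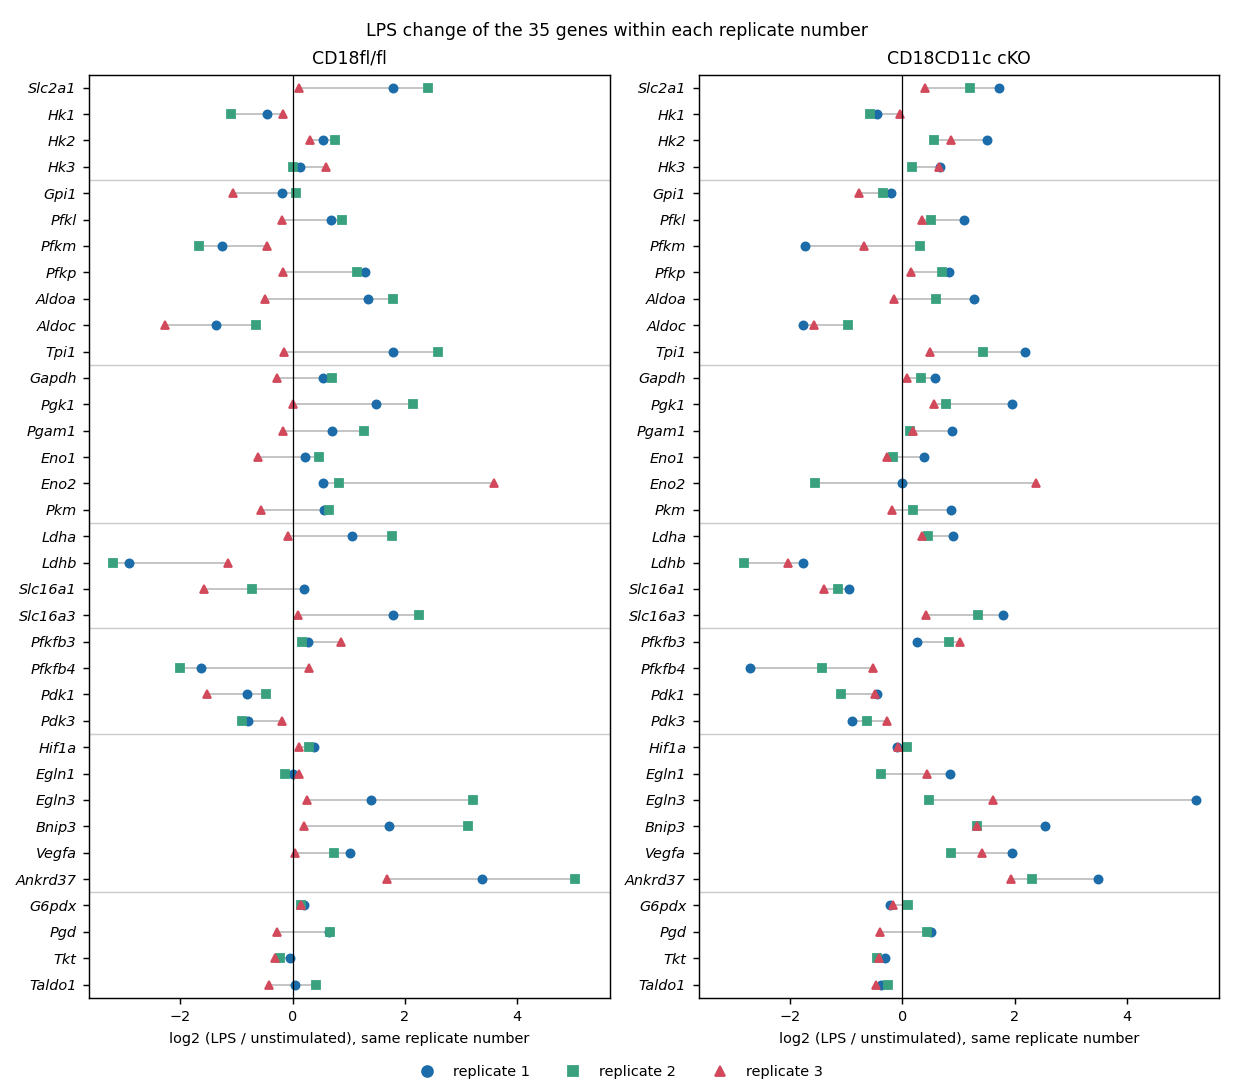
Log2 ratio of LPS-treated to unstimulated CPM within each replicate number, for all 35 genes grouped by role (grey lines separate the roles), in CD18fl/fl (left) and CD18CD11c cKO BMDCs (right). Points are the 3 replicate numbers and the thin line spans them. In CD18fl/fl, replicate 3 lies near 0 for most genes that rose in replicates 1 and 2. Exceptions include Eno2 at 3.59, Ankrd37 at 1.68 and Pfkfb3 at 0.86 above 0, and Eno1 at -0.61 and Pkm at -0.57 below it.

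Ankrd37, an ankyrin repeat gene known as a direct target of HIF-1, was the most strongly raised of the 35 genes. It measured 6.33, 3.41 and 3.42 CPM in unstimulated CD18fl/fl and 66.0, 111 and 11 CPM in LPS-treated CD18fl/fl BMDCs. All 3 treated libraries lay above all unstimulated ones. The log2 fold change was 3.84 (SE 0.81, edgeR adjusted p = 0.0505) and 3.38 with the block (SE 0.65, edgeR adjusted p = 0.0265). Bnip3, a mitochondrial receptor for mitophagy and also a HIF-1 target, went from 103, 76.3 and 149 CPM to 337, 664 and 172 CPM. These groups did not overlap either, but replicate 3 added only 0.21 on the log2 scale. Its log2 fold change of 1.84 did not pass the test (edgeR adjusted p = 0.0991, and 0.0963 with the block).

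The other hypoxia genes differed in size. Egln3, an oxygen-sensing prolyl hydroxylase that is itself induced by HIF-1, went from 16.3, 8.60 and 42.0 CPM to 43.2, 80.1 and 50.1 CPM. The groups did not overlap, although the log2 fold change of 1.38 did not pass (edgeR adjusted p = 0.204, and 0.109 with the block). Hif1a, the oxygen-regulated subunit of HIF-1, measured 99.8, 124.7 and 290 CPM before and 130, 153 and 313 CPM after LPS. Replicate 3 exceeded the other libraries in both states, and the log2 fold change was 0.22 (edgeR adjusted p = 0.828). Egln1, the main prolyl hydroxylase of resting cells, had a log2 fold change of 0.01, and Vegfa, an angiogenic growth factor, one of 0.64 (edgeR adjusted p = 0.989 and 0.231). All 6 hypoxia genes had a positive fold change, but 4 of 6 when counts were scaled to library size only, where Hif1a and Egln1 turned negative.

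Promoter sequence is shown for the 3 genes that passed the test with the block in CD18fl/fl, Ankrd37, Ldhb and Aldoc, and for Bnip3, which was added after its values were seen. Windows run from 250 bases before to 50 bases after the transcript start, come from RefSeq (build GRCm38.p6), and were placed in GRCm39 by exact match. For Ankrd37 the RefSeq start lies 5857 bases from the gene start in the count tables. Each is given 5′ to 3′ on the strand of its gene. Capitals mark the core of the hypoxia response element, ACGTG or GCGTG, on either strand, and overlapping matches were counted separately. Ankrd37 (chr8:46452838-46453137, minus strand) held 4 matches, Bnip3 (chr7:138511186-138511485, minus strand) 5, Aldoc (chr11:78213649-78213948, plus strand) 3 and Ldhb (chr6:142453634-142453933, minus strand) 1.
Ankrd37: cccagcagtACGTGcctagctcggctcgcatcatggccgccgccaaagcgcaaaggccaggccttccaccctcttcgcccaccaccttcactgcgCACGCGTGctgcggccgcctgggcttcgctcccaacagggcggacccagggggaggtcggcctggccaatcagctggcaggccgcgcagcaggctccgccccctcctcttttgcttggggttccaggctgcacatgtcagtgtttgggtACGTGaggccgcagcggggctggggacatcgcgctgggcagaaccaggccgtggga
Bnip3: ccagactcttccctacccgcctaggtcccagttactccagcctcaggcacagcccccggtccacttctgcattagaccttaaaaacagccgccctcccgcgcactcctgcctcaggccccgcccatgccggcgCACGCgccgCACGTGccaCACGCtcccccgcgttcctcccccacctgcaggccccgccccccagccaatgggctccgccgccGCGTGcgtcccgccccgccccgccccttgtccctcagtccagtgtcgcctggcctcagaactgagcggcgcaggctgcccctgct
Aldoc: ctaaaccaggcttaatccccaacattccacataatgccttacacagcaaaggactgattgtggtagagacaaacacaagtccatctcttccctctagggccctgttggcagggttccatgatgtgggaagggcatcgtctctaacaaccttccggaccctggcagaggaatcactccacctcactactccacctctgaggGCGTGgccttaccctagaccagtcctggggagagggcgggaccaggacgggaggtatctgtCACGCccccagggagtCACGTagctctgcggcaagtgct
Ldhb: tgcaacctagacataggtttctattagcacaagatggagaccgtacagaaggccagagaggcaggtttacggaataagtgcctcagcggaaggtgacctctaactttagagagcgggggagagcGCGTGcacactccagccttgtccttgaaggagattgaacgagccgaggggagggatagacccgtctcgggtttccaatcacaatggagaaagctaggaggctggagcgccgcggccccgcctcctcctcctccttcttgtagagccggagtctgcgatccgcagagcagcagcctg
The letters occurred both in genes that rose and in genes that fell. A window was found for all 35 genes, and 28 held at least 1 match, where 43.8% of all 32851 windows of 300 bases did. For the 35 genes only the window nearest the gene start was kept, whereas the 43.8% counts every listed window. The sets thus differ, and enrichment was not tested. Ldha had the most matches, 7. Vegfa, Tpi1, Pkm, Hk1, Gpi1, Eno2 and Aldoa had 0 in this window.

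**Figure D2:**
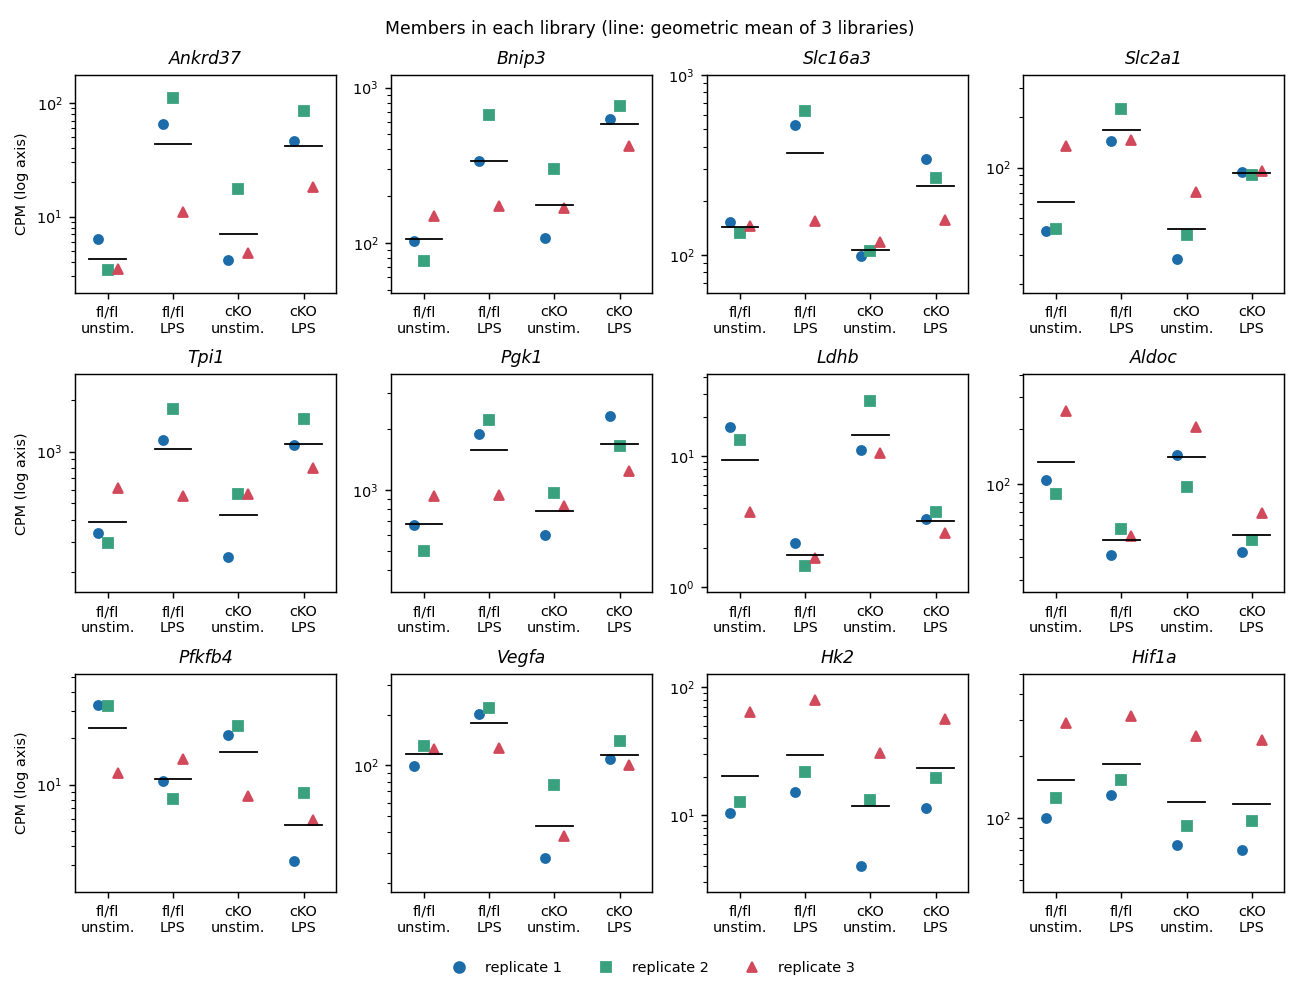
CPM (log axis) of 12 of the 35 genes in each of the 12 libraries. Colors and shapes give the replicate number and the black line is the geometric mean of the 3 libraries of a group. LPS-treated replicate 3 of CD18fl/fl lies below replicates 1 and 2 for Ankrd37, Bnip3, Slc16a3, Tpi1 and Pgk1, and replicate 3 has the highest Hk2 and Hif1a level within each group.

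At the entry of the pathway, the glucose transporter Slc2a1 (GLUT1) measured 41.7, 42.5 and 134 CPM in unstimulated and 145, 226 and 146 CPM in LPS-treated CD18fl/fl BMDCs. The groups did not overlap, and the unstimulated replicate 3 came closest to the treated libraries. The log2 fold change was 1.25 (SE 0.51, edgeR adjusted p = 0.197, and 0.0879 with the block). Hexokinase traps glucose in the cell by phosphorylation. Hk1 went from 40.8, 55.2 and 73.1 CPM to 29.7, 25.9 and 65.1 CPM, lower in each of the 3 replicate numbers but with overlapping groups (log2 fold change -0.48, edgeR adjusted p = 0.522). Hk2 and Hk3 had log2 fold changes of 0.42 and 0.25 (edgeR adjusted p = 0.804 and 0.532).

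In upper glycolysis, Tpi1 (triosephosphate isomerase) and Aldoc (aldolase C) differed most and in opposite directions. Aldoc fell with the block. It measured 104.9, 88.6 and 251 CPM in unstimulated and 40.8, 56.7 and 51.8 CPM in LPS-treated CD18fl/fl BMDCs, without overlap, with a log2 fold change of -1.57 (SE 0.43, edgeR adjusted p = 0.0929) and of -1.42 with the block (SE 0.34, edgeR adjusted p = 0.0474). With an offset for exon length added to the block, Ankrd37 and Ldhb kept their calls and Aldoc did not (7.07% of all genes higher and 6.65% lower). Tpi1 went from 335, 293 and 612 CPM to 1161, 1759 and 553 CPM. Replicates 1 and 2 rose by 1.79 and 2.59 on the log2 scale and replicate 3 did not, which left the log2 fold change of 1.49 above the threshold (edgeR adjusted p = 0.132, and 0.123 with the block). Aldoa followed the same course, with 1138, 1037 and 1431 CPM before and 2870, 3558 and 1018 CPM after LPS (log2 fold change 1.05, edgeR adjusted p = 0.222). Of the phosphofructokinases, which catalyse the committed step, Pfkp and Pfkl had log2 fold changes of 0.59 and 0.43 and Pfkm one of -0.93, and Gpi1 (glucose 6-phosphate isomerase) one of -0.38. None of these 4 passed (edgeR adjusted p from 0.388 to 0.449).

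In lower glycolysis all 6 genes had positive fold changes, and 4 of 6 did with library size scaling, where Eno1 and Pkm turned negative. Pgk1 reached 671, 498 and 933 CPM in unstimulated and 1878, 2197 and 937 CPM in LPS-treated CD18fl/fl BMDCs. The groups did not overlap, though replicate 3 differed by 0.01 on the log2 scale, and the log2 fold change of 1.26 did not pass (edgeR adjusted p = 0.125, and 0.105 with the block). Eno2 measured 6.85, 7.15 and 0.53 CPM before and 10.0, 12.6 and 6.56 CPM after LPS, with a log2 change of 3.59 in replicate 3 against 0.55 and 0.82 in the others. Gapdh measured 355, 425 and 678 CPM before and 519, 694 and 558 CPM after LPS. Its groups overlapped (log2 fold change 0.29, edgeR adjusted p = 0.616). Between 52.9% and 58.1% of Eno1 reads were uniquely mapped, so its values are uncertain, whereas 30 of the 35 genes had at least 95% unique reads in every library.

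Of the 4 genes of lactate production and export, Ldhb passed, with the block. Ldhb, the heart form of lactate dehydrogenase, measured 16.6, 13.4 and 3.71 CPM in unstimulated and 2.18, 1.45 and 1.68 CPM in LPS-treated CD18fl/fl BMDCs. It was lower in each replicate number, with a log2 fold change of -2.66 (SE 0.59, edgeR adjusted p = 0.057) and of -2.43 with the block (SE 0.49, edgeR adjusted p = 0.0302). Slc16a3 (MCT4), the lactate exporter of glycolytic cells, went from 152, 132 and 144 CPM to 524, 628 and 154 CPM. Replicates 1 and 2 increased by 1.79 and 2.25 on the log2 scale and replicate 3 by 0.09 on the log2 scale, and the log2 fold change of 1.61 did not pass (edgeR adjusted p = 0.116, and 0.0881 with the block). Ldha, the muscle form, had a log2 fold change of 1.08 and Slc16a1 (MCT1) one of -1.01 (edgeR adjusted p = 0.196 and 0.364).

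Of the 4 regulatory kinases, 3 had negative log2 fold changes. Pfkfb4, which sets the level of fructose 2,6-bisphosphate, measured 32.8, 32.3 and 11.97 CPM in unstimulated and 10.6, 8.11 and 14.7 CPM in LPS-treated CD18fl/fl BMDCs, with overlapping groups (log2 fold change -1.20, edgeR adjusted p = 0.164). Pdk1, a pyruvate dehydrogenase kinase that holds pyruvate back from mitochondrial oxidation and a known HIF-1 target, went from 36.9, 31.6 and 56.4 CPM to 21.1, 22.7 and 19.6 CPM. Every treated library was below every unstimulated one, and the log2 fold change was -0.97 (SE 0.27, edgeR adjusted p = 0.0967, and 0.071 with the block). Pdk3 was lower by -0.64 without overlap, and Pfkfb3, the inducible PFKFB isozyme, had a log2 fold change of 0.28 (edgeR adjusted p = 0.162 and 0.87).

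None of the 4 pentose phosphate genes passed the test. G6pdx, the entry enzyme glucose 6-phosphate dehydrogenase, measured 150.3, 154 and 122 CPM before and 174, 171 and 136 CPM after LPS, higher in each replicate number by 0.15 to 0.21 on the log2 scale (log2 fold change 0.18, edgeR adjusted p = 0.689). Pgd, the next NADPH-yielding enzyme, went from 388, 398 and 442 CPM to 609, 629 and 364 CPM. Transketolase Tkt went from 223, 267 and 275 CPM to 215, 229.5 and 221 CPM. The log2 fold changes of Pgd, Tkt and Taldo1 were 0.39, -0.19 and 0.08, and none passed (edgeR adjusted p = 0.443, 0.629 and 0.903).

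Counting only whether groups overlapped, 6 of the 35 genes (Slc2a1, Pgk1, Slc16a3, Egln3, Bnip3 and Ankrd37) were higher in every LPS-treated CD18fl/fl library than in any unstimulated one, against 13.6% of all genes tested. The 4 that were lower without overlap were Aldoc, Ldhb, Pdk1 and Pdk3, against 15.9% of all genes.

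The same comparison in CD18CD11c cKO BMDCs called more genes once the block was used. Without the block, Ldhb was lower and 0 genes were higher in edgeR (2.23% of the 12687 genes tested were called higher and 1.76% lower). There, 12 of the 35 genes had an unadjusted p under 0.05, as did 2685 of all 12687. With the block, 8 genes rose and 4 fell, against 10.2% and 9.93% of all genes. Slc2a1, Hk2, Tpi1, Pgk1, Slc16a3, Bnip3, Vegfa and Ankrd37 rose, and Aldoc, Ldhb, Slc16a1 and Pfkfb4 fell. With library size scaling and the block, the split was 4 higher and 9 lower, against 6.97% and 14.7% of all genes. That scaling lowered the median log2 change of all genes to -0.23 from -0.01, and the median of the 35 genes lay 0.27 above that of all genes under both scalings. A change of scaling moves all genes by nearly the same amount, so this difference could hardly change and is no check. DESeq2 without a block called 6 higher (4.01% of 19186 genes) and 3 lower (3.89%).

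Ldhb was the gene past the threshold without a block. It measured 11.1, 26.4 and 10.6 CPM in unstimulated and 3.28, 3.73 and 2.59 CPM in LPS-treated CD18CD11c cKO BMDCs. The log2 fold change was -2.39 (SE 0.45, edgeR adjusted p = 0.0407) and -2.25 with the block (SE 0.31, edgeR adjusted p = 0.00468). Without the block, leaving out replicate 1 or replicate 2 of either group ended the call, with edgeR adjusted p from 0.101 to 0.148. Without replicate 3 of the treated group, edgeR called Slc16a3 higher and Ldhb and Aldoc lower (4.12% and 3.68% of all genes).

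With the block, 3 hypoxia genes rose. Ankrd37 measured 4.16, 17.3 and 4.77 CPM in unstimulated and 46.7, 85.7 and 18.2 CPM in LPS-treated CD18CD11c cKO BMDCs, without overlap (log2 fold change with the block 2.51, SE 0.32, edgeR adjusted p = 0.00378, against 0.114 without it). Bnip3 went from 107, 300.4 and 168 CPM to 625, 758 and 422 CPM (1.68 with the block, SE 0.28, edgeR adjusted p = 0.00889, against 0.0863). Vegfa went from 28.1, 76.4 and 37.99 CPM to 109, 140 and 101 CPM (1.37 with the block, SE 0.25, edgeR adjusted p = 0.0115, against 0.135). All 3 genes were higher in each of the 3 replicate numbers. Hif1a had a log2 fold change of -0.06 and differed by at most 0.09 within a replicate number.

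Of the enzymes and transporters, Tpi1 measured 243, 567 and 569 CPM before and 1097, 1542 and 805 CPM after LPS in CD18CD11c cKO BMDCs, and Slc16a3 98.7, 104.9 and 117 CPM before and 342, 266 and 157 CPM after. Neither gene's groups overlapped. With the block, the log2 fold changes were 1.33 for Tpi1 and 1.14 for Slc16a3 (edgeR adjusted p = 0.0266 and 0.0282). Pgk1 and Slc2a1 rose by 1.05 and 1.06 and Hk2 by 0.93 (edgeR adjusted p = 0.045, 0.0311 and 0.0368 with the block). Aldoc, with 144, 96.1 and 206 CPM before and 42.3, 49.1 and 69.7 CPM after LPS, had the second smallest adjusted p among the genes that fell (log2 fold change -1.48, SE 0.21, edgeR adjusted p = 0.00504 with the block). Pfkfb4 and Slc16a1 fell by 1.59 and 1.22 on the log2 scale (edgeR adjusted p = 0.0411 and 0.0212 with the block). The other 23 genes did not pass.

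The replicate numbers of CD18CD11c cKO also differed, though less. In replicates 1, 2 and 3, 22, 22 and 18 of the 35 genes were higher with LPS, with median log2 changes of 0.59, 0.19 and 0.08. Of the 5 genes above 1 on the log2 scale in replicates 1 and 2 (Slc2a1, Tpi1, Slc16a3, Bnip3 and Ankrd37), 2 were above it in replicate 3. The groups did not overlap for 8 genes that were higher (14.8% of all genes) and 4 that were lower (13.4%). In CD18CD11c cKO BMDCs the 8 were Slc2a1, Tpi1, Pgk1, Slc16a3, Egln3, Bnip3, Vegfa and Ankrd37, and the 4 were Gpi1, Aldoc, Ldhb and Pdk1.

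The interaction test asked whether the LPS response differed between the genotypes. In edgeR on all 12 libraries, 0 of the 35 genes and 0 of 13752 genes overall passed, with or without the block, and 0 of the 35 had an unadjusted p under 0.05 in either fit. DESeq2 also called 0 of the 35, and 0.00485% of 20634 genes. At an unadjusted p under 0.05, edgeR had 97 genes in all without the block and 272 with it.

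The isozymes of an enzyme were also compared as shares of the reads per kilobase of that enzyme's genes. Hk3 made up most hexokinase reads, with 60.2% ± 14.9 (SD, n = 3) in unstimulated CD18fl/fl BMDCs. Hk1 went from 26.5% ± 3.25 to 17.1% ± 3.65 with LPS in CD18fl/fl and from 27.7% ± 5.53 to 16.8% ± 1.87 in CD18CD11c cKO BMDCs (SD, n = 3 each), with no overlap in either genotype. Aldoc went from 8.22% ± 3.18 to 2.02% ± 1.515 of aldolase and Ldhb from 2.01% ± 1.14 to 0.197% ± 0.125 of lactate dehydrogenase reads in CD18fl/fl (SD, n = 3 each). In CD18CD11c cKO, Aldoc went from 12% ± 4.75 to 3.82% ± 3.00 and Ldhb from 2.64% ± 1.38 to 0.3775% ± 0.127. Pfkfb4 took 32.7% ± 12.2 of PFKFB reads in unstimulated and 11.4% ± 10.1 in LPS-treated CD18CD11c cKO BMDCs (SD, n = 3 each). These changes had the smallest p that 3 against 3 libraries allow in an exact permutation test (two-sided p = 0.1), and none of 48 tests passed after adjustment (lowest adjusted p = 0.4).

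**Figure D3:**
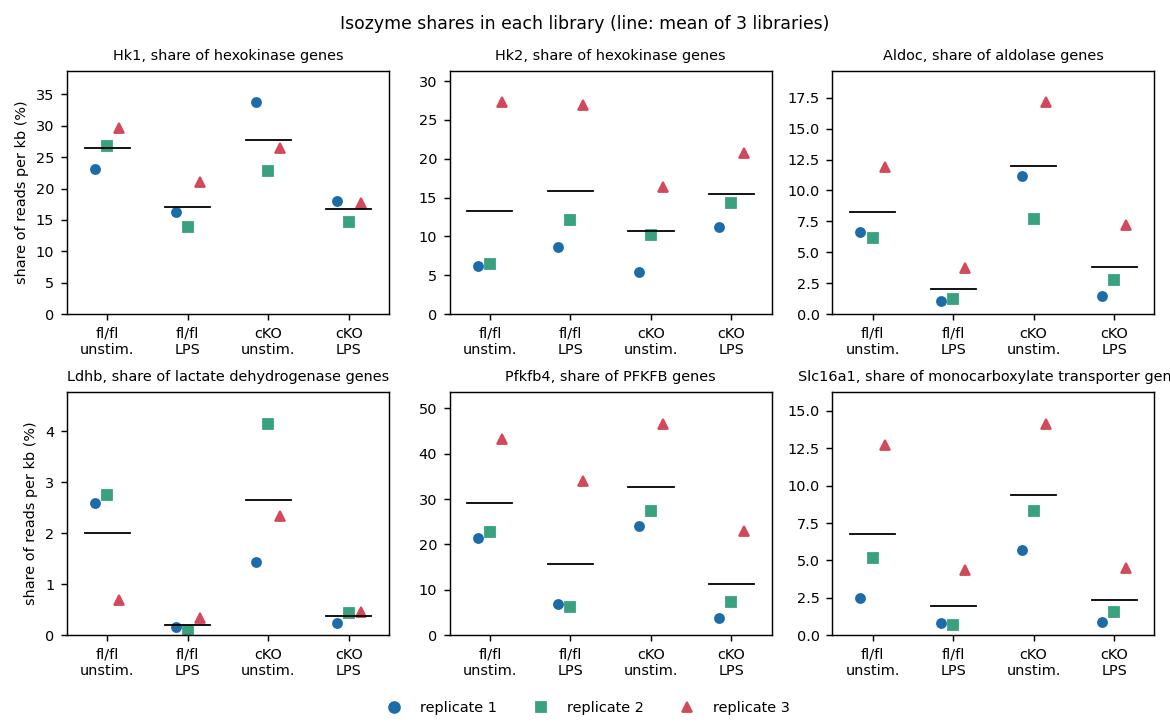
Share (%) of 6 genes in the reads per kilobase of their enzyme's genes, in each library, with the group mean as a black line. Shares of Hk1, Aldoc and Ldhb were lower in every LPS-treated library than in any unstimulated library of the same genotype, and replicate 3 had the highest share of Hk2, Aldoc, Pfkfb4 and Slc16a1 in each group.

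Genotype was compared within each state, as CD18CD11c cKO relative to CD18fl/fl BMDCs. Most of the 35 genes were lower in the CD18CD11c cKO on average: 23 of 35 unstimulated and 31 of 35 with LPS had negative log2 fold changes. The medians were -0.24 and -0.42 against -0.05 and -0.11 over all genes. Within replicate numbers 1, 2 and 3, 29, 21 and 29 genes were lower unstimulated and 30, 30 and 19 with LPS. In replicate 3 with LPS, 16 genes were higher, and the median log2 difference was -0.12 against -0.10 over all genes. Without the block, edgeR called 0 of the 35 genes and 0% of all 12876 (unstimulated) and 12441 (LPS) genes in either direction. At an unadjusted p under 0.05 were 1 and 5 of the 35, and 2159 and 1212 of all genes. DESeq2 without a block also called 0 of the 35, while it called 2.56% of all genes higher and 0.239% lower in the unstimulated state and 0.682% and 0.0525% with LPS. With the block, 5 of the 35 genes were lower and 0 higher in each state. In the unstimulated state these were Hk1, Gpi1, Pfkl, Pfkfb3 and Vegfa, against 8.16% of all genes lower and 12.1% higher. With LPS they were Slc2a1, Gpi1, Hif1a, Vegfa and G6pdx, against 3.16% lower and 6.98% higher.

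Among the 35 genes, Vegfa had the lowest adjusted p of the unstimulated comparison. The 3 CD18CD11c cKO libraries measured 28.1, 76.4 and 37.99 CPM and the CD18fl/fl libraries 99.1, 131 and 124 CPM. The groups did not overlap, and the log2 fold change was -1.38 with the block (SE 0.22, edgeR adjusted p = 0.00717) and -1.25 without it (edgeR adjusted p = 0.199). With LPS, CD18CD11c cKO libraries measured 109, 140 and 101 CPM against 202, 220 and 128 CPM (log2 fold change -0.65 with the block, SE 0.16, edgeR adjusted p = 0.0477, against 0.511 without). These groups overlapped, although each CD18CD11c cKO library lay below its CD18fl/fl counterpart.

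In unstimulated BMDCs, Pfkfb3 measured 182, 167 and 23.8 CPM in CD18fl/fl and 100.5, 96.0 and 14.7 CPM in CD18CD11c cKO. Replicate 3 was far below the others in both genotypes, and within replicate numbers the difference was even, at -0.86, -0.80 and -0.70 on the log2 scale (log2 fold change with the block -0.73, SE 0.14, edgeR adjusted p = 0.0123, against 0.708 without). Hk1 measured 40.8, 55.2 and 73.1 CPM in CD18fl/fl and 26.1, 31.2 and 51.6 CPM in CD18CD11c cKO (-0.60 with the block, edgeR adjusted p = 0.0275, against 0.419). Pfkl, the liver form of phosphofructokinase, measured 43.0, 43.9 and 74.8 CPM in CD18fl/fl and 19.8, 35.7 and 42.9 CPM in CD18CD11c cKO (-0.68 with the block, edgeR adjusted p = 0.0387, against 0.394). Gpi1 was close to the threshold, with 418, 423 and 568 CPM in CD18fl/fl and 280.4, 334 and 364 CPM in CD18CD11c cKO (-0.46 with the block, edgeR adjusted p = 0.0496, against 0.326). The groups did not overlap for Pfkl and Gpi1.

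After LPS, Slc2a1 showed the lowest adjusted p of the 35 genes. It measured 145, 226 and 146 CPM in CD18fl/fl and 93.6, 90.6 and 94.9 CPM in CD18CD11c cKO BMDCs, without overlap (log2 fold change with the block -0.88, SE 0.19, edgeR adjusted p = 0.03, against 0.391 without). G6pdx measured 174, 171 and 136 CPM in CD18fl/fl and 99.3, 117 and 93.2 CPM in CD18CD11c cKO, also without overlap (-0.66 with the block, SE 0.14, edgeR adjusted p = 0.033, against 0.445). Hif1a measured 130, 153 and 313 CPM in CD18fl/fl and 69.8, 96.8 and 239 CPM in CD18CD11c cKO (-0.67 with the block, edgeR adjusted p = 0.0404, against 0.798). Gpi1 measured 368, 440 and 273 CPM in CD18fl/fl and 244, 263 and 214 CPM in CD18CD11c cKO (-0.59 with the block, edgeR adjusted p = 0.0459, against 0.518). Aldoa was just outside the threshold (-0.83 with the block, edgeR adjusted p = 0.0501).

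**Figure D4:**
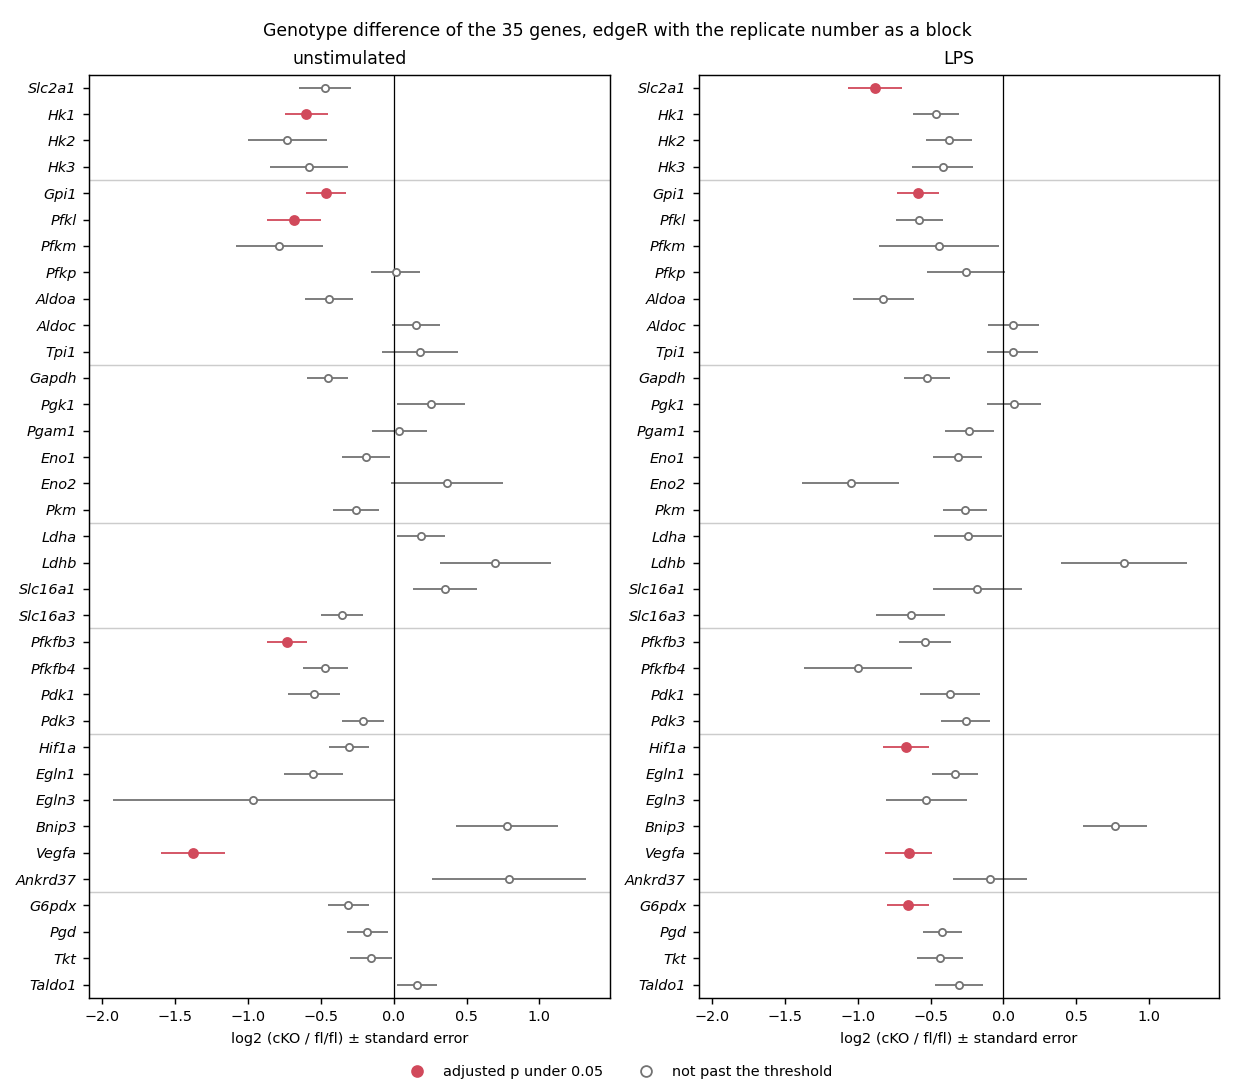
Log2 fold change of CD18CD11c cKO relative to CD18fl/fl BMDCs for the 35 genes, unstimulated (left) and LPS-treated (right), from edgeR with the replicate number as a block, with bars of 1 standard error. Filled red points are past an adjusted p of 0.05. All filled points lie left of 0, and Vegfa at -1.38 is the farthest of them.

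A few genes lay on the other side. Bnip3 was higher in the CD18CD11c cKO in each replicate number of both states, with log2 fold changes of 0.78 and 0.77 with the block that did not pass (edgeR adjusted p = 0.153 and 0.0677). Ldhb was higher in all 3 LPS-treated CD18CD11c cKO libraries, 3.28, 3.73 and 2.59 CPM against 2.18, 1.45 and 1.68 CPM, and did not pass (0.83 with the block, edgeR adjusted p = 0.264). Groups did not overlap for 0 genes higher and 7 lower in the unstimulated state (11.7% and 13.1% of all genes), and for 1 higher and 7 lower with LPS (9.51% and 8.09%).

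The genotype calls shifted with scaling and with gene length. With library size scaling and the block, 22 of the 35 genes were lower in the unstimulated and 19 in the LPS-treated state, against 30.1% and 16.5% of all genes lower and 5.44% and 4.74% higher. That scaling lowered the median of all genes to -0.46 and -0.34, and the median of the 35 genes lay 0.24 and 0.33 below that of all genes, as it did with TMM and the block. This match follows from the nearly equal shift of all genes and is no check. With an exon length offset and the block, 3 genes were lower in the unstimulated state (Gapdh, Pfkfb3 and Vegfa, against 4.59% of all genes lower and 7.6% higher) and 1 with LPS (Aldoa, against 2.09% lower and 5.06% higher). Hk1, Gpi1 and Pfkl lost their unstimulated calls there, and none of the 5 genes called with LPS kept its call. Summed proliferation markers (8 genes, Pcna among them) were 226 to 434 CPM in unstimulated CD18fl/fl and 752 to 994 CPM in unstimulated CD18CD11c cKO BMDCs, and 240 to 397 and 511 to 750 CPM with LPS. Pcna made up most of these sums, with means of 249 and 646 CPM unstimulated and 243 and 508 CPM with LPS. All listed markers had higher means in the CD18CD11c cKO when unstimulated. With LPS, Mki67, Top2a and Mcm5 had lower means there, and Ccnb1, Cdk1, Birc5, Pcna and Tyms higher ones. The part of these markers in the differences of the 35 genes was not tested.

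Replicate 3 lay outside both other libraries, in the same direction in all 4 groups, for 8 of the 35 genes. Hk1, Hk2, Pfkm, Slc16a1 and Hif1a were above both other libraries in all 4 groups, which 17% of 13752 genes were. Pfkfb3, G6pdx and Taldo1 were below both in all 4 groups, which 15.7% of genes were. Pfkfb3 in replicate 3 was lower by -2.87 to -2.24 on the log2 scale than the arithmetic mean of replicates 1 and 2, and Hk2 higher by 1.82 to 2.47. Hif1a was higher by 1.147 to 1.601, with 239 to 313 CPM in replicate 3. Other genes switched sides with the treatment in CD18fl/fl. Aldoa, Tpi1, Pgk1 and Bnip3 in replicate 3 were above the others by 0.40, 0.96, 0.68 and 0.74 on the log2 scale when unstimulated, and below by -1.66, -1.40, -1.12 and -1.54 with LPS.

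**Figure D5:**
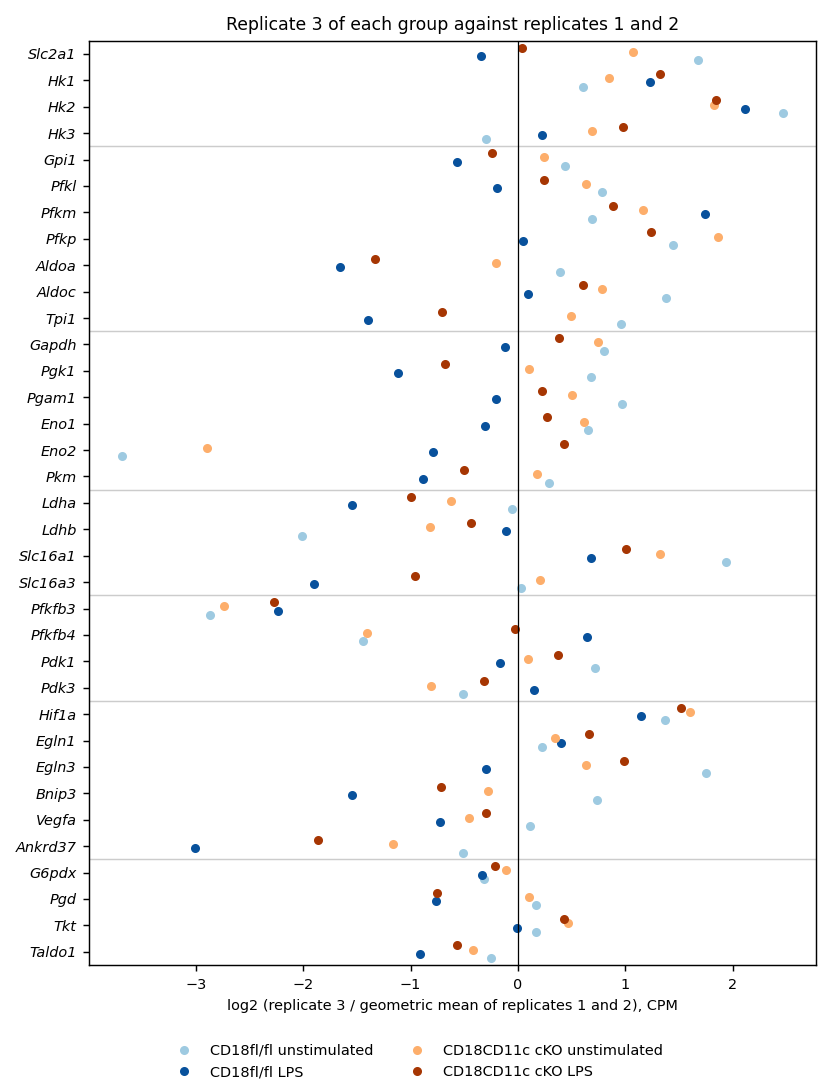
Log2 ratio of replicate 3 to the arithmetic mean of replicates 1 and 2 (CPM) for the 35 genes, with 1 point per group. The axis label names a geometric mean, but the arithmetic mean was used. Pfkfb3 lies left of -2 and Hk2 right of 1.8 in all 4 groups, whereas Ankrd37 runs from -0.51 in unstimulated to -3.01 in LPS-treated CD18fl/fl BMDCs.

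Further genes of the same pathways were taken from lists, which were chosen with earlier results of these data known. Of 40 other hypoxia-induced genes, 35 could be tested for LPS in CD18fl/fl BMDCs. Gbe1 (glycogen branching enzyme) and Lox (lysyl oxidase) rose without the block, and with it 8 rose (6.33% of all genes) and 1 fell (6.43%). Lox rose from a mean of 0.364 to 7.99 CPM (log2 fold change with the block 4.52, edgeR adjusted p = 0.00739) and Ccng2 from 38.2 to 106.7 CPM (1.42, edgeR adjusted p = 0.0222). Gbe1 also rose, as did Adm, Ddit4, Ndrg1 and Mxi1, named after their values were seen, and Cited2, a transcription cofactor that limits HIF-1, fell (-0.94, edgeR adjusted p = 0.0457, and 0.0503 with a length offset). The median log2 fold change of this list with the block was 0.97, against -0.03 over all genes. In CD18CD11c cKO BMDCs, 15 of 33 rose (10.2% of all genes) and 2 fell (9.93%) with the block, with a median of 0.75 against -0.01. Those that fell were Cited2 and Angptl4, the second named after its values were seen and at 0 reads in all 3 LPS-treated CD18CD11c cKO libraries.

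Of 24 other glycolysis genes, 16 could be tested, and with the block Pgm1 (phosphoglucomutase) rose and the ADP-dependent glucokinase Adpgk fell with LPS in both genotypes (in CD18fl/fl 1.37 and -1.56, edgeR adjusted p = 0.0284 and 0.0264). The chaperone Emb and the transporters Slc16a7 and Slc16a6 fell among the 5 monocarboxylate transport genes in both genotypes with the block. In CD18fl/fl, the log2 fold changes were -0.97 for Emb, -2.61 for Slc16a7 and -1.05 for Slc16a6 (edgeR adjusted p = 0.032, 0.00915 and 0.0393). With a length offset added to the block, Slc16a6 lost its call in CD18fl/fl (edgeR adjusted p = 0.0546), and Emb, Slc16a6 and Adpgk lost theirs in CD18CD11c cKO BMDCs (edgeR adjusted p = 0.0516, 0.0508 and 0.059). With the block, Pdha1, a subunit of pyruvate dehydrogenase, fell by 0.89 in CD18fl/fl (edgeR adjusted p = 0.041). It was 1 of 11 genes of pyruvate entry into mitochondria, where 6.43% of all genes were called lower. Eloc, a subunit of the ubiquitin ligase that binds hydroxylated Hif1a, rose by 1.14 with the block (edgeR adjusted p = 0.0449). It was 1 of 12 genes of the oxygen-sensing machinery, where 6.33% of all genes were called higher. Neither Pdha1 nor Eloc passed without the block. Of 11 other genes of the pentose phosphate pathway and nucleotide sugars that could be tested, 0 passed in CD18fl/fl and 2 (Rpia and Prps2, named after their values were seen) fell in CD18CD11c cKO BMDCs with the block.

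Between the genotypes, 0 genes of any of these lists passed in edgeR without the block. With the block, genes of several lists passed in the unstimulated state, where 12.1% of all genes were higher and 8.16% lower in the CD18CD11c cKO. Among 34 other hypoxia-induced genes, 2 were higher (Higd1a and Fam162a) and 5 lower. Among 13 genes of the oxygen-sensing machinery, Eloc and Rbx1, subunits of the ubiquitin ligase that acts on hydroxylated Hif1a, were higher, with log2 fold changes of 1.28 and 0.63 (edgeR adjusted p = 0.00303 and 0.0373). Arnt, the partner of Hif1a in HIF-1, the coactivator Ep300 and the ubiquitin ligase Siah2 were lower, with log2 fold changes of -0.55, -0.81 and -0.75 (edgeR adjusted p = 0.0437, 0.0182 and 0.0424). Mpc2, a part of the mitochondrial pyruvate carrier, was higher as 1 of 12 genes of pyruvate entry (0.99, edgeR adjusted p = 0.00646). Of 16 other glycolysis genes, Eno3 was higher and Pgm2 lower, of 11 other genes of the pentose phosphate pathway and nucleotide sugars, Rbks was higher and H6pd lower, and of the 5 monocarboxylate transport genes 0 passed. With LPS, where 6.98% of all genes were higher and 3.16% lower, Eloc and Mpc2 were again higher (1.12 and 0.77, edgeR adjusted p = 0.00921 and 0.0319), and 2 of 33 other hypoxia-induced genes were higher (again Higd1a and Fam162a) and 2 lower (Ddit4 and P4ha1). With LPS, 0 genes of the other 3 lists passed. With a length offset added to the block, Eloc and Higd1a kept their calls in both states and Siah2, Eno3 and Pgm2 in the unstimulated state and Ddit4 with LPS, whereas Mpc2, Fam162a, Rbx1, Arnt, Ep300, Rbks, H6pd and P4ha1 lost theirs. In this paragraph, the genes other than Eloc were named after their values were seen.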

How the data were processed

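RNA of MHCII+ BMDCs was made into poly(A) libraries and sequenced as short single-end reads without molecular identifiers. The authors mapped and counted the reads with CLC Genomics Workbench 22.0 and deposited, for each library, gene counts (total and unique) and TPM. Coordinates in the tables match GRCm39. The deposited TPM were not used here. Total gene counts were tested with edgeR 4.0.16 (R 4.3.3) by quasi-likelihood, on the 6 libraries of each comparison, with TMM scaling, a minimum count of 10 (filterByExpr) and Benjamini-Hochberg adjustment at 0.05. DESeq2 1.42.0, other scalings, no filter, unique counts, a length offset and left-out libraries were alternatives.

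The replicate numbers come from the labels. The 12 pairs of same-numbered libraries correlated by 0.282 to 0.778 in their deviations from group means over 13752 genes, so a replicate block was fitted as well. Pairs of a replicate 1 with a replicate 2 correlated by 0.199 to 0.437, and pairs of replicate 3 with another number negatively. Deviations from the mean of 3 libraries sum to 0, so the positive values of the other pairs force these negative ones. How far the split of replicate 3 from the others makes up the same-numbered values was not tested. Isozyme shares were compared by a two-sided exact permutation test. The scripts were tested on simulated data.

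The 35 genes and all lists were chosen with earlier results of these data known. Of the 35 genes, 34 were matched by name and Aldoa by identifier. Values of every library are given for the 2 genes of each role with the largest change with LPS in CD18fl/fl, for Hif1a, Gapdh and G6pdx, and for genes called between genotypes with the block, and further genes (such as Aldoa and Egln3 in CD18fl/fl) were added after their values were seen. One gene of the pathway lists is not reported here by name.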

Additional observations from a re-analysis of the deposited data

How the results depend on the processing

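Counts of the 35 genes called higher and lower moved with most settings. For LPS in CD18fl/fl (0 higher and 0 lower), the counts were 5 and 2 with DESeq2 and 2 and 3 with edgeR on all 12 libraries (4.13% and 3.64% of all genes). They were 0 and 1 with library size scaling, 1 and 1 without a filter, 1 and 0 with unique reads and 1 and 0 with a length offset. With the replicate block, which uses the pairing by replicate number, they were 1 and 2 in edgeR, 9 and 3 with DESeq2 (8.35% and 8.05% of all genes), 7 and 4 on all 12 libraries (12.1% and 12.3%), 1 and 2 with unique reads, 1 and 3 with library size scaling (3.74% and 8.98%) and 1 and 1 with a length offset. On replicates 1 and 2 alone they were 18 and 7 (23.2% and 24.3%). For LPS in CD18CD11c cKO (0 and 1), they were 6 and 3 with DESeq2 and 2 and 2 without a filter. With the replicate block they were 8 and 4 in edgeR, with unique reads and with a length offset, 10 and 4 with DESeq2 (9.03% and 8.57%), 6 and 5 on all 12 libraries (11.8% and 10.1%) and 4 and 9 with library size scaling, and on replicates 1 and 2 alone 5 and 4 (7.93% and 7.99%). For genotype in the unstimulated state (0 and 0), the genes lower with the replicate block were 5 in edgeR (8.16% of all genes), 8 with DESeq2 (6.57%), 4 with unique reads, 3 with a length offset (4.59%), 22 with library size scaling (30.1%) and 2 on all 12 libraries (3.18%), and 1 on replicates 1 and 2 alone (2.67%). With LPS they were 5 (3.16%), 10 (3.24%, and 1 higher), 6, 1 (2.09%), 19 (16.5%) and 2 (0.865%), and 2 on replicates 1 and 2 alone (0.977%).

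Leaving out 1 library at a time without the block gave 0 to 8 higher and 0 to 3 lower genes for LPS in CD18fl/fl, 0 to 1 and 0 to 2 in CD18CD11c cKO, and 0 for genotype. With the replicate block and 1 replicate number left out (1, 2 and 3 in turn), 3, 1 and 18 genes were higher and 1, 1 and 7 lower for LPS in CD18fl/fl. In CD18CD11c cKO, 2, 5 and 13 were higher and 2, 2 and 7 lower. For genotype, 1, 0 and 0 were higher and 1, 2 and 4 lower unstimulated, and 0, 0 and 12 lower with LPS. Shares of all genes are not given for these fits, so their counts cannot be set against a background. The same holds for any count without a share of all genes here or earlier. The settings that pair the block with DESeq2, unique reads, library size scaling, all 12 libraries or a left-out number were chosen after seeing the data. Of 3850 values of single genes under these settings, 0 called values changed sign, 262 had the other sign without a call in either fit, 350 passed the threshold where the reported fit did not and 4 lost it. The cause of these shifts was not tested. With 3 libraries a group, an exact test cannot go below p = 0.1, and counting error covers only part of the spread between libraries.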
